A study of Mus musculus with 24 samples.

Results

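Entry into quiescence was followed in myoblasts whose Ift88 mRNA had been targeted by siRNA. The comparison rests on 6 of the 24 arrays of the series: 3 arrays of quiescent and 3 of proliferating cells given IFT88 siRNA (IFT88KD), chosen by their labelled siRNA and culture state. It was described over 8600 genes of the 12393 that the arrays measured. All cells were C2C12, a line of mouse skeletal muscle myoblasts. Proliferating IFT88KD cells grew attached to the dish, and quiescent IFT88KD cells were kept in suspension, both in DMEM with 20% fetal bovine serum, so the states differ in attachment and not in serum. The sources used here do not give the time in suspension. A negative control siRNA was carried through both states, with 3 arrays each, and it served to test whether entry differed between the siRNAs. The remaining 12 arrays, of replated and differentiating cells, contributed to the estimate of spread. siRNA lowers an mRNA without removing the gene, and the labels do not say whether replicates came from separate cultures, so p-values measure the spread between these samples, which may be technical.

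Quiescence, or G0, is a reversible exit from the cell cycle. Anchorage-dependent cells such as myoblasts enter it when they lose contact with a surface, and return to the cycle when they are plated again. Muscle stem cells rest in this state in adult muscle. In G0 the centriole can dock at the membrane and template a primary cilium, and intraflagellar transport, which needs the IFT88 protein, builds it. The genes of late cell cycle phases are held down in G0 by the DREAM complex, which contacts a promoter element named the cell cycle genes homology region (TTTGAA), often beside CCAAT boxes bound by NF-Y. Genes of DNA replication are controlled largely through E2F sites.

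Median signal over all probe sets was 3.60 to 3.61 log2 on the 3 IFT88KD proliferating arrays and 3.79 to 3.85 on the 3 IFT88KD quiescent arrays, and the control arrays lay at 3.57 to 3.62 and 3.80 to 3.83. A gene is therefore said to have risen or fallen only where limma's adjusted p was under 0.05 with the same sign both on the deposited values and after each array was centred on its median. Precision is limited by the number of arrays. Ift88 itself, measured by 1 probe set, gave 3.62, 3.49 and 3.54 log2 on IFT88KD proliferating arrays and 3.89, 3.56 and 3.42 on IFT88KD quiescent arrays. These values overlapped, and its change on entry was 0.07 (SE 0.16, adjusted p = 0.689). In control cells Ift88 gave 4.35, 3.74 and 4.13 log2 when proliferating and 4.45, 4.25 and 4.24 when quiescent, above all IFT88KD arrays of the same state. Of 8 myoblast markers 8 were measured above the filter in these cells, whereas 0 of 6 endothelial and 0 of 5 epithelial markers were. Markers of other cell types passed in part: 3 of 10 for macrophages, 3 of 7 for fibroblasts, 2 of 7 for bone and cartilage and 1 of 6 for adipocytes. On entry Sox9, of bone and cartilage, rose by 1.42, and the other marker of that list was not called. Pparg, of adipocytes, rose by 0.94. The part of such cells was not tested. On entry 6 of the 8 myoblast markers fell, Vcam1 rose by 2.19 (adjusted p = 1.59e-10) and Des, the desmin gene, was not called (-0.05). Among those that fell, Cdh15 (M-cadherin) gave 7.33, 7.54 and 8.28 log2 on IFT88KD proliferating arrays and 5.69, 5.63 and 5.73 on quiescent arrays, and it fell by 2.04 (SE 0.23). Myod1, the myogenic determination factor, fell by 0.78 (SE 0.19) and remained at 7.11 to 7.42 log2 in quiescent cells.

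The promoters printed here belong to genes of mitosis that fell on entry and whose fall differed between the siRNAs, or to Cdk1, the kinase that drives mitosis. Each line gives the 250 bases before the start of transcription, 5′ to 3′, from RefSeq on GRCm38.p6, with TTTGAA and CCAAT in capitals on either strand, so that TTCAAA and ATTGG mark the opposite strand.
Mki67, chr7:135716380-135716629 (minus strand): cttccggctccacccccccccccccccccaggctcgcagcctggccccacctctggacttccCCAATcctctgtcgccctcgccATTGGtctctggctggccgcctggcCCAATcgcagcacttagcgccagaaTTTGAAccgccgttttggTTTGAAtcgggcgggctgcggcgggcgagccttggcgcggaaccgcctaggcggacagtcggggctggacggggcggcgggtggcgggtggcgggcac
Ccnb2, chr9:70421555-70421804 (minus strand): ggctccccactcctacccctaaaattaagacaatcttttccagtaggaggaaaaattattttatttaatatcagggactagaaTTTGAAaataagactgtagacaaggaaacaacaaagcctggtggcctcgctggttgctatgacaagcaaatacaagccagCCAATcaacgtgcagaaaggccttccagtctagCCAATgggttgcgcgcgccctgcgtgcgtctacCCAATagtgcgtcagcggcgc
Ube2c, chr2:164769679-164769928 (plus strand): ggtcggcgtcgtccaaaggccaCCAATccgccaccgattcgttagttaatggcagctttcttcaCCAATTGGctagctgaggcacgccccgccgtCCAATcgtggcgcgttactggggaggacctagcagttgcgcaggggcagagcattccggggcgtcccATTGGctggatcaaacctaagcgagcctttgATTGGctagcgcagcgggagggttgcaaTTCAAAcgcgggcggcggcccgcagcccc
Top2a, chr11:99024190-99024439 (minus strand): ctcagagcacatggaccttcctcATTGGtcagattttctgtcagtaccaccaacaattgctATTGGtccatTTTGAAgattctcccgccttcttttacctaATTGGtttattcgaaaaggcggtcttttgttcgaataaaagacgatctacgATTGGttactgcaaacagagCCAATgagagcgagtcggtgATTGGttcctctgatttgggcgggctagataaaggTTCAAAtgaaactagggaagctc
Cdk1, chr10:69352913-69353162 (minus strand): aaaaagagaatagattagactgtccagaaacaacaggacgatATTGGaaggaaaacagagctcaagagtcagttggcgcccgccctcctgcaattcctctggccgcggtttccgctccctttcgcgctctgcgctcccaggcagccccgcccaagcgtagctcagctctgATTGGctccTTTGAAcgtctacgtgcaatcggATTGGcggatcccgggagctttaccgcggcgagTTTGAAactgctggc
The promoter of Uhrf1, which encodes a protein that recruits the maintenance DNA methyltransferase to replicating DNA, is shown for the other class, with an E2F site (GGCGGGAA, here on the opposite strand) in capitals. A second RefSeq promoter of Uhrf1 held no match to the E2F letters. Uhrf1 was picked as an example. Of the other DNA replication promoters drawn out with it, that of Mcm5 held a match and those of Mcm3, Cdc6 and Pola1 held none.
Uhrf1, chr17:56303087-56303336 (plus strand): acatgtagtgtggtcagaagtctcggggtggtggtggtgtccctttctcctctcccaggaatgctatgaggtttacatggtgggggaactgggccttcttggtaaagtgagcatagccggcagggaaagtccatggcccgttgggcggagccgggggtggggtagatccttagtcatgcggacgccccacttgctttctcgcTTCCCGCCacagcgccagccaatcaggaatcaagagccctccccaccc

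Each of the 5 mitotic promoters held both elements, with 1 or 2 copies of TTTGAA and 3 to 6 of CCAAT. These 5 were picked as examples, so their matches say nothing of G2 and mitosis genes as a whole. Of 57 G2 and mitosis genes tested, 48 had a promoter in the RefSeq table. TTTGAA stood in the 250 bases of 15 of these 48 (31.2%), against 12.3% of 6976 tested genes with a promoter and 18.3% of 27025 genes in the whole table. CCAAT stood in 33 (68.8%, against 40.8% of tested genes and 37.5% of the table), and both together in 14 (29.2%, against 4.47% and 6.45%). With the 50 bases after the start added, a window chosen after the data were seen, TTTGAA stood in 29 of 48 (60.4%, against 13.8% of tested genes and 20.2% of the table). Of the 39 DNA replication genes with a promoter, 8 (20.5%) held an E2F site, searched as GGCGGGAA or GGCGCGAA, against 5% of tested genes and 2.6% of the table. In the same 250 bases CCAAT stood in 23 of these 39 (59%) and TTTGAA in 6 (15.4%). A high share of CCAAT was thus not particular to G2 and mitosis genes. Searches ran on both strands, overlaps between motifs were allowed, and a gene counted where any of its promoters matched. These shares describe letters and show no binding.

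Entry into quiescence changed a large part of the transcriptome of IFT88KD cells. Of 8600 genes 2528 rose (29.4%) and 2522 fell (29.3%) in limma, and 1053 (12.2%) rose and 824 (9.58%) fell by at least 1 log2 on both scales. The counts of list members given below are to be read beside the shares of 29.4% and 29.3%. The median change over all genes was 0.11 on the deposited scale and -0.09 after centring. The split of calls depended on this choice: 3422 higher and 2522 lower on the deposited scale alone (57.6% higher), but 2528 higher and 3369 lower after centring alone (42.9% higher). Rises reached further than falls. Of the genes that rose 73 did so by 4 log2 or more and 98 by 3 to 4, whereas 16 fell by 4 or more and 83 by 3 to 4.

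**Figure D1:**
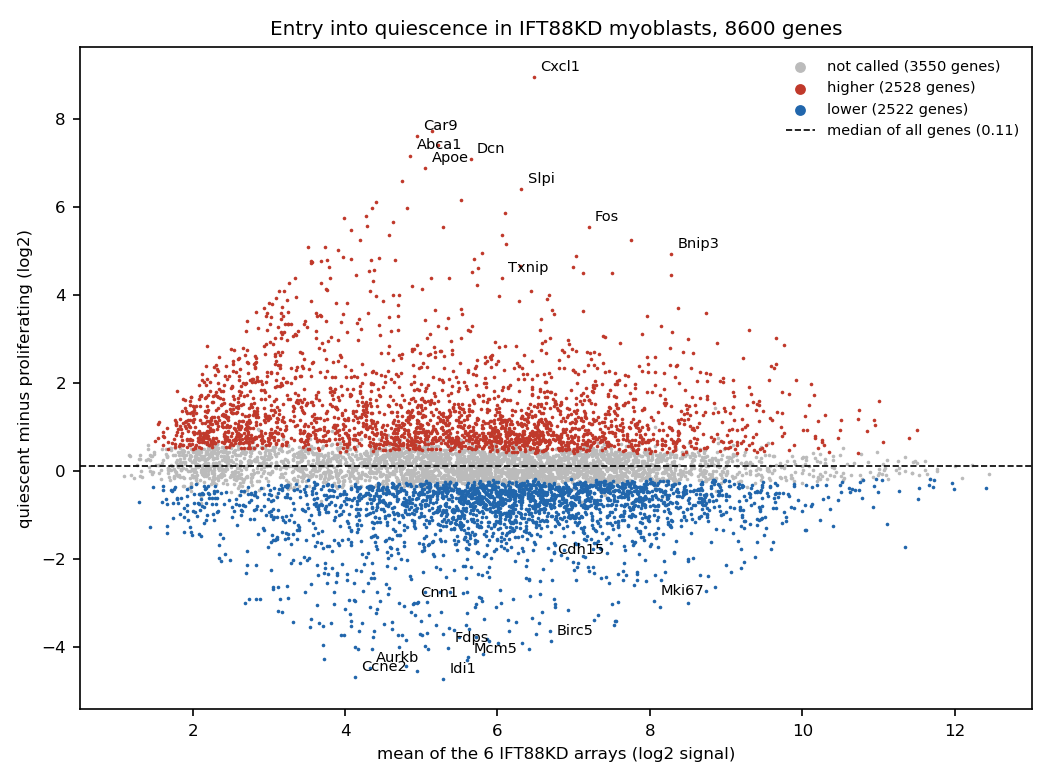
Change of each of 8600 genes on entry into quiescence in IFT88KD cells (vertical, log2, 3 quiescent minus 3 proliferating arrays) against its mean signal on the 6 arrays (horizontal, log2). Red points rose (2528 genes), blue points fell (2522), grey points were not called, and the dashed line marks the median of all genes at 0.11.

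Cxcl1, which encodes a chemokine that attracts neutrophils, rose most among genes whose arrays did not overlap. It gave 2.29, 1.73 and 1.99 log2 on IFT88KD proliferating arrays and 10.80, 10.85 and 11.22 on quiescent arrays, a rise of 8.95 (SE 0.26, adjusted p = 2.51e-17). It was followed by Rgs5 (7.74), a regulator of G protein signalling, the hypoxia-induced carbonic anhydrase Car9 (7.61), the chemokine gene Cxcl5 (7.42), the cholesterol exporter Abca1 (7.17), the small proteoglycan Dcn (7.10) and the lipoprotein gene Apoe (6.88). Ncf4 (6.60), the protease inhibitor gene Slpi (6.40), Spon2 (6.15), Mgst1 (6.12), 2610528A11Rik (5.98), the secreted Wnt antagonist gene Sfrp4 (5.97), Rgs2 (5.86) and Car12 (5.79) complete the 15 largest. Most of these genes lay in the lowest 40% of signals on all 3 proliferating arrays, where a log2 value near the floor has an uncertain size. Genes in that position passed the filter only through other arrays, so their choice favoured a rise.

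Among the falls Idi1, the isopentenyl diphosphate isomerase of the cholesterol pathway, changed most. It gave 7.61, 7.53 and 7.82 log2 on proliferating and 2.77, 2.84 and 3.14 on quiescent arrays, a fall of 4.74 (SE 0.11, adjusted p = 7.7e-19). Fdps, the next enzyme of that pathway, fell by 4.03 (SE 0.17). The other 13 of the 15 largest falls were in genes with roles in the cell cycle or DNA metabolism: Ccne2 (-4.70), Melk (-4.55), Aurkb (-4.49), Cenpe (-4.44), Mcm5 (-4.29), Exo1 (-4.28), Cep55 (-4.25), Kif23 (-4.16), Zwilch (-4.06), Gtse1 (-4.06), Cdc6 (-4.05), Uhrf1 (-4.05) and Ndc80 (-4.02). Ccne2, Aurkb, Exo1, Gtse1, Cdc6 and Ndc80 lay in the lowest 40% of signals on all 3 quiescent arrays. For the 30 genes of largest change the arrays held 15 other probe sets, and 7 of them showed a change more than 1.5 times smaller and 1 the opposite sign. Other probe sets gave 0.17 and 0.01 for Abca1, -0.07 for Fdps and -0.95 for Cep55, each in the lowest 40% of signals on all 6 arrays.

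All 57 G2 and mitosis genes that were tested fell, with a median change of -3.28 against 0.11 over all genes. Aurkb, the mitotic kinase of the chromosomal passenger complex, went from 6.53, 6.59 and 6.59 log2 to 2.13, 2.04 and 2.08. Birc5 (survivin), its partner, went from 8.69, 8.70 and 8.52 to 4.60, 4.97 and 4.72, a fall of 3.87 (SE 0.15, adjusted p = 3.47e-15). Cdk1 went from 9.07, 9.17 and 9.01 to 5.89, 6.32 and 6.06. Mki67, which encodes the proliferation antigen Ki-67, went from 9.50, 9.59 and 9.53 to 6.31, 6.76 and 6.63, a fall of 2.97 (SE 0.20, adjusted p = 1.86e-11). None of these groups overlapped, and Mki67 and Cdk1 stayed well above the median signal of the quiescent arrays. The smallest falls were those of Psrc1 (-0.56) and Bub3 (-0.78), the latter a spindle checkpoint gene at 8.24 to 8.38 log2 in quiescent cells. In RNA from whole cultures, fewer cycling cells and less RNA per cell cannot be told apart.

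The 46 DNA replication genes tested fell too, with a median of -2.24. Mcm5, a subunit of the replicative helicase, went from 7.93, 7.80 and 7.52 log2 to 3.41, 3.30 and 3.65. The helicase loader Cdc6 went from 6.43, 6.05 and 6.12 to 2.02, 1.98 and 2.44. Pcna, the sliding clamp, changed less, from 10.31, 10.28 and 10.08 to 8.58, 8.56 and 8.66, a fall of 1.62 (SE 0.11). Dispersion within the list was wide, from -4.29 in Mcm5 to -0.67 in Rpa3, a subunit of the single-strand binding protein. Among 19 G1 cyclin and E2F genes 16 fell and 2 rose, with a median of -1.62. Ccne2 and Ccne1, the cyclin E genes, fell by 4.70 and 2.77, E2f8 by 3.64 and the ubiquitin ligase subunit Skp2 by 2.86. Ccnd1 (cyclin D1) went from 9.31, 8.79 and 8.30 to 6.88, 6.62 and 7.20. The 2 higher members were Ccnd2 (0.78) and Myc (0.95), the latter at 7.04, 7.29 and 7.79 log2 in quiescent cells against a mean of 6.43 ± 0.58 (SD, n = 3) in proliferating cells. Neither call was stable: 0 members were higher without IFT88KD proliferating replicate 3 (adjusted p of up to 0.304 for Ccnd2 and 0.178 for Myc with 1 array left out) and 1 without IFT88KD proliferating replicate 2 or any single quiescent replicate.

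CDK inhibitors and genes linked to arrest rose in 18 of 26 cases and fell in 4, with a median of 1.18. Txnip, which restrains glucose uptake, had the largest change, from 3.60, 4.03 and 3.98 log2 to 8.33, 8.21 and 8.22 (4.38, SE 0.20, adjusted p = 3.91e-14). Gadd45a rose by 2.62, the transcription factors Foxo3 and Klf9 by 2.44 and 2.38, and Spry1, a brake on growth factor signalling found in resting muscle stem cells, by 2.21. Cdkn1b (p27) rose by 1.13 (SE 0.16). Cdkn1a (p21) went from 8.57, 8.86 and 9.66 to 10.24, 10.08 and 10.19, a rise of 1.14 (SE 0.23, adjusted p = 1.33e-04). Among members that fell were Gadd45g (-1.65), Cdkn2c (-1.16) and Cdkn2d (-0.52). Of 21 p53 target genes 8 rose and 5 fell, with a median of 0.36, shares not far from those over all genes (29.4% and 29.3%). Gtse1, itself a gene of G2, was the largest fall in that list at -4.06.

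**Figure D2:**
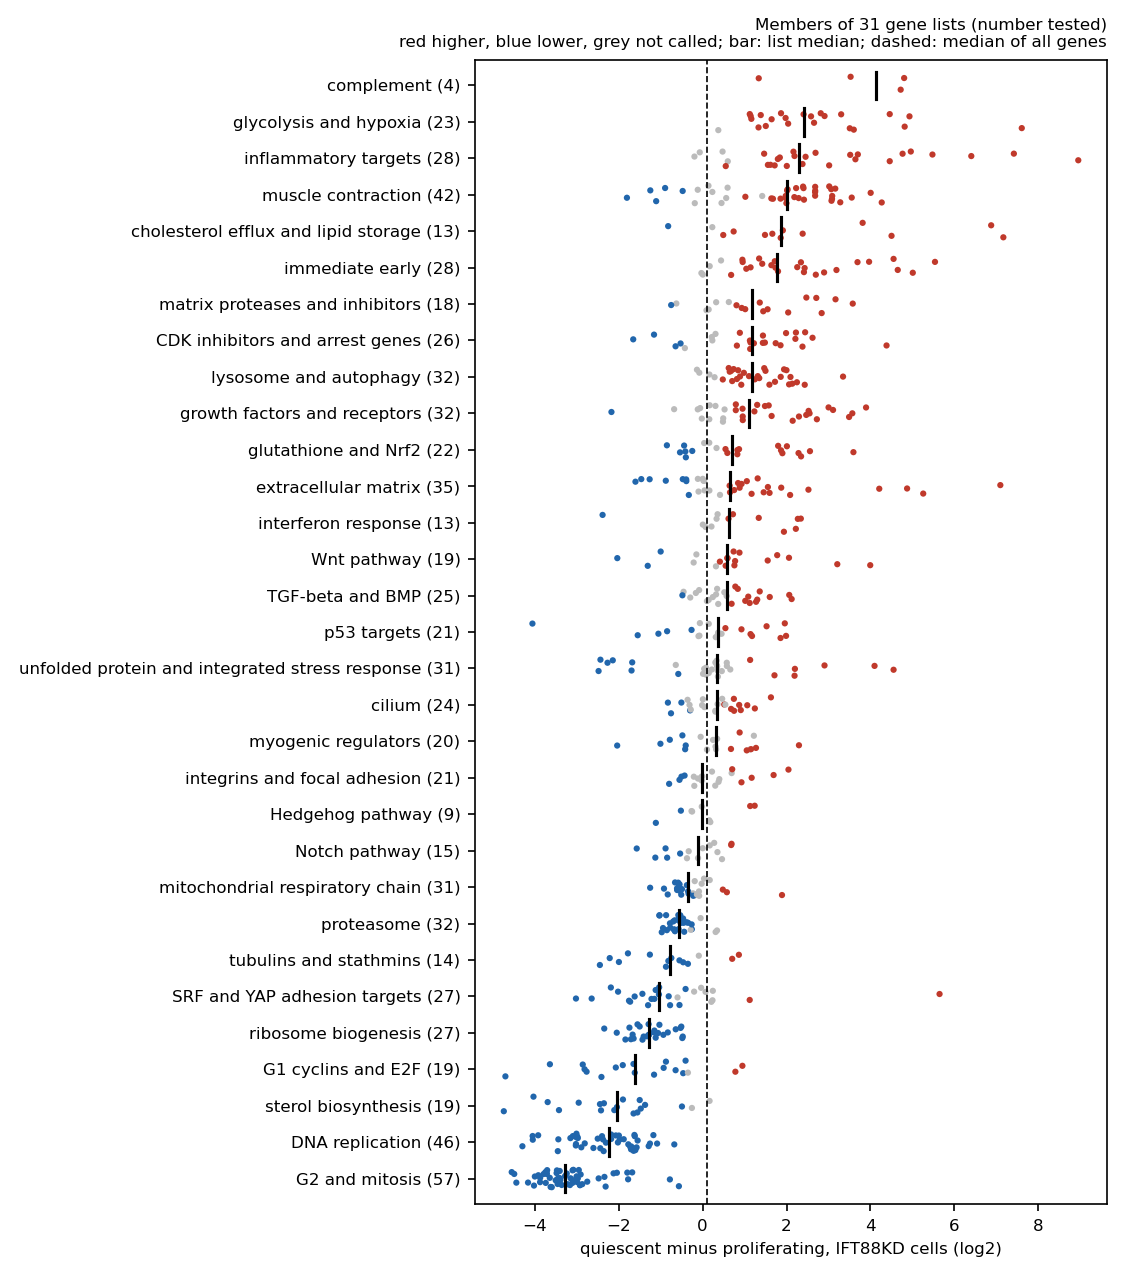
Members of 31 gene lists placed by their change on entry in IFT88KD cells (horizontal, log2), with the number tested after each name. Red members rose, blue fell and grey were not called. Black bars are list medians, and the dashed line is the median of all genes at 0.11. G2 and mitosis has the lowest median, -3.28. Complement lies highest, but 3 of its 4 tested members lay in the lowest 40% of signals on all proliferating arrays and passed the filter only through other arrays.

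Growth and biosynthesis genes fell alongside the cell cycle. All 27 ribosome biogenesis genes tested were lower, with a median of -1.28. Rrp12 fell by 2.34, Nop56 by 2.05 and Fbl, the fibrillarin that methylates ribosomal RNA, by 1.84. Of 32 proteasome subunit genes 28 fell, with a narrow spread around a median of -0.57 and the largest falls in Psmd13 and Psmd7 (-1.03 each). Respiratory chain genes fell in 18 of 31 cases and rose in 3 (median -0.35). Cytochrome c (Cycs) fell by 1.25, and Cox7a1, the muscle form of a cytochrome oxidase subunit, rose by 1.89. Tubulin and stathmin genes fell in 11 of 14 cases (median -0.78), led by Tubb3 (-2.45) and Stmn1 (-2.21).

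Sterol biosynthesis fell in 17 of 19 genes, with a median of -2.04. The pathway was lower from its early steps, with Hmgcs1 at -2.35 and Mvk at -1.50, through Idi1 and Fdps, to the late enzymes Cyp51 (-3.42), Msmo1 (-3.69) and Sc5d (-2.95). Srebf2, which encodes the transcription factor that activates this pathway when sterols are low, fell by 1.90. The 2 members not called were Hsd17b7 (-0.25) and Tm7sf2 (0.17). Genes of cholesterol efflux and lipid storage went the other way, with 11 of 13 higher, 1 lower and a median of 1.86. Abca1 went from 1.25, 1.24 and 1.33 log2 to 8.59, 8.54 and 8.20, and Apoe from 1.74, 1.31 and 1.79 to 8.63, 8.44 and 8.41. The lipoprotein lipase gene Lpl rose by 4.50, the lipid droplet gene Plin4 by 3.81 and the lysosomal cholesterol transporter Npc1 by 1.86, whereas the lipoprotein receptor gene Scarb1 fell by 0.82.

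Glycolysis and hypoxia genes rose in 22 of 23 cases (median 2.41). Car9 went from 1.17, 1.02 and 1.24 log2 to 8.48, 8.70 and 9.06. Bnip3, a mitophagy receptor, went from 5.64, 5.83 and 5.97 to 10.67, 10.74 and 10.82, a rise of 4.93 (SE 0.19, adjusted p = 3.47e-15). Pdk1, which encodes a kinase that inhibits pyruvate dehydrogenase, rose by 4.82 and Ndrg1 by 4.46. The prolyl hydroxylase genes P4ha1 and P4ha2 rose by 3.30 and 3.51, and the glucose transporter gene Slc2a1 by 2.91. Glycolytic enzymes of the lower pathway rose less, with Pgk1 at 1.16, Ldha at 1.15 and Pgam1 at 1.12, and Pkm was not called (0.37). Lysosome and autophagy genes rose in 28 of 32 cases, with a median of 1.18. Cathepsin genes Ctsf, Ctsa and Ctsh rose by 3.35, 2.43 and 2.14, Hexa by 2.25, and the autophagy adaptor gene Sqstm1 by 1.32. Of 22 glutathione and Nrf2 genes 13 rose and 6 fell (median 0.71), with Gpx3 (3.59) and the metallothioneins Mt2 (2.56) and Mt1 (2.35) highest. Falls in this list were no larger a share than over all genes (29.3%).

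**Figure D3:**
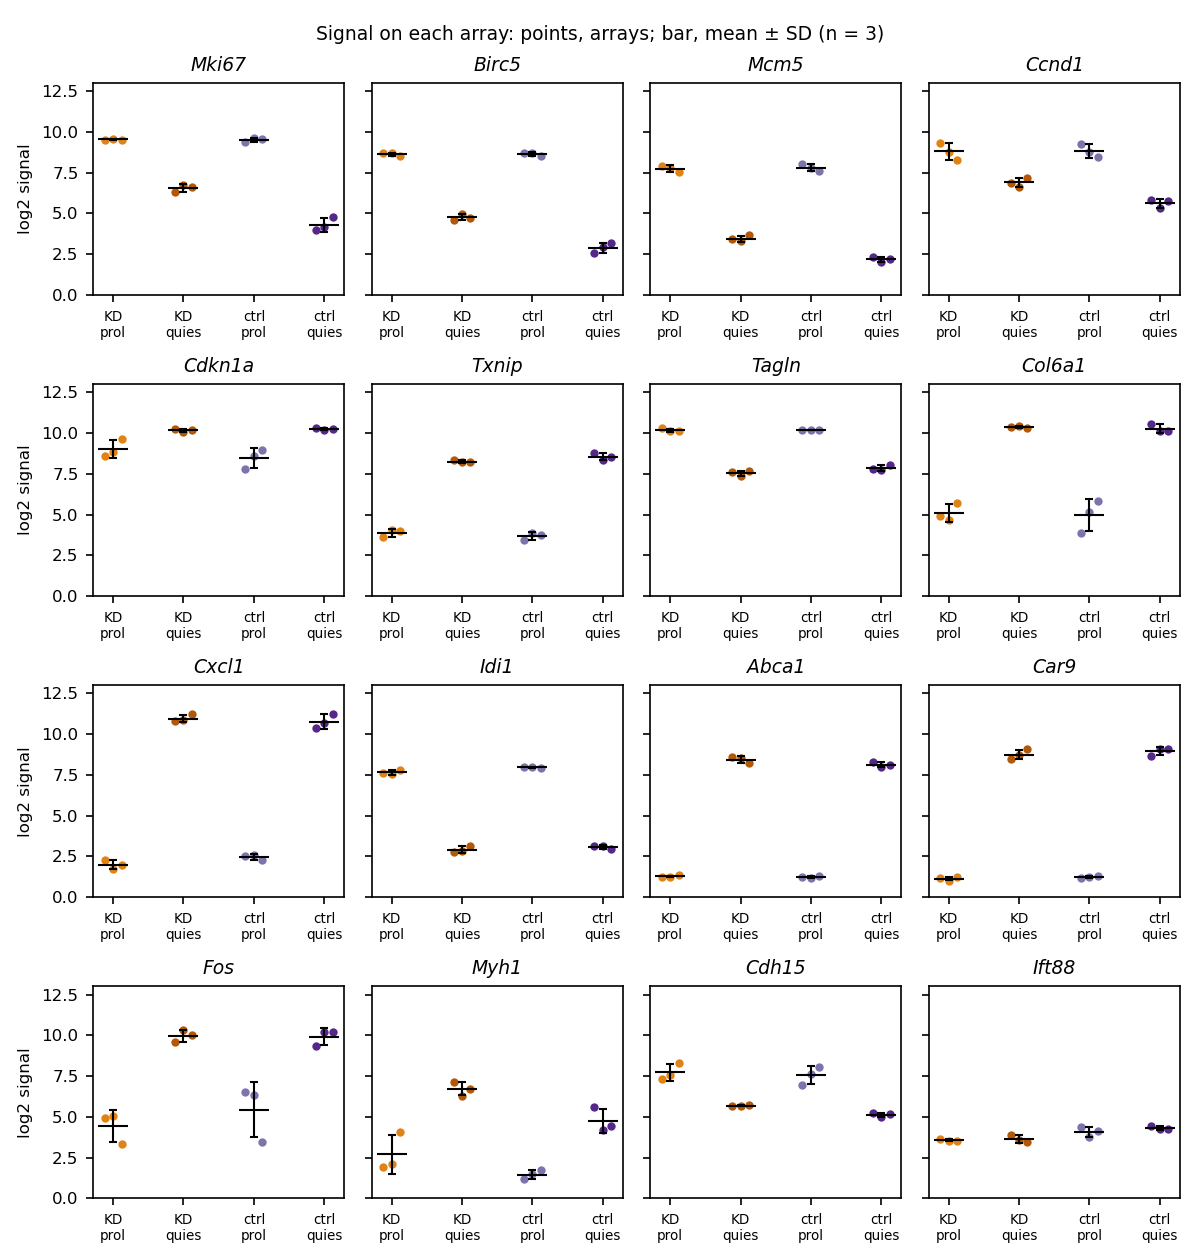
Signal of 16 genes on each array (vertical, log2) in IFT88KD proliferating, IFT88KD quiescent, control proliferating and control quiescent cells, with points for arrays and bars for mean ± SD (n = 3). Mki67 and Birc5 are lower in both quiescent groups than in proliferating cells, and lie higher in quiescent IFT88KD (6.31 to 6.76 for Mki67) than in quiescent control cells (3.97 to 4.79).

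Inflammatory target genes rose in 24 of 28 cases (median 2.29). A gene could pass the filter through any 3 arrays, and 11 of these 28 were in the lowest 40% of signals on all IFT88KD proliferating arrays, so their choice favoured a rise. The same holds for 8 of 42 genes of muscle contraction, 5 of 19 of the Wnt pathway, 4 of 13 of cholesterol efflux, 4 of 18 matrix proteases and 3 of 13 interferon response genes. Apart from complement, the other pathway lists held at most 2 such members each. Among these were Car9 of glycolysis and hypoxia and Gpx3 of glutathione and Nrf2. Il33 rose by 5.48, Ccl2 by 4.96, Il6 by 4.77 (SE 0.56) and the acute phase gene Saa3 by 4.46. Il6 varied between arrays, at 5.51, 5.65 and 7.05 log2 in quiescent against 1.26, 1.36 and 1.30 in proliferating cells, and the groups did not overlap. Nfkbia and Nfkbiz, which encode regulators of NF-kB from the IkB family, rose by 3.02 and 3.64. Of 16 complement genes listed 12 were on the arrays and 4 were tested, 3 of them low on all proliferating arrays in this way, so their count says nothing of complement as a whole. The changes were 4.80 for Serping1, 4.72 for C1s1, 3.53 for C1ra and 1.34 for Cd59a. Of 13 interferon response genes 7 rose and 1 fell (median 0.62). The class I antigen genes H2-D1 and H2-K1 rose by 2.34 and 2.27, and Ifit2 was the member that fell (-2.38). The H2-D1 probe set used lay in the lowest 40% of signals on all IFT88KD proliferating arrays. Other probe sets changed by -0.23 to 2.68 for H2-D1, with 1.49 for the brightest, and by -0.02 to 1.79 for H2-K1. Macrophage markers were measured beside these lists. Of 10 such markers 3 passed the filter, and of these Cd14 (2.58) and Csf1r (1.25) rose and Cd68 (0.51) was not called. Their summed signal, most of it from Cd14, went from 4.13 to 4.59 log2 on proliferating arrays to 6.58 to 6.75 on quiescent arrays, and the other 7, among them Adgre1, Ptprc and Itgam, did not pass the filter. Csf1r and Cd68 lay in the lowest 40% of signals on all IFT88KD proliferating arrays, and other Csf1r probe sets changed by -0.01 and 0.72. The part of other cell types in the rises of these lists was not tested.

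Immediate early genes, which answer growth factors and stress within minutes, were higher in 24 of 28 cases (median 1.77). Fos gave 4.90, 5.08 and 3.30 log2 in proliferating and 9.58, 10.31 and 10.01 in quiescent cells, a rise of 5.54 (SE 0.65, adjusted p = 1.51e-07). Fosb rose by 5.01, Nr4a1 by 4.65, Atf3 by 4.55, Zfp36 by 3.97 and Egr1 by 2.43 (SE 0.26). Genes of the unfolded protein and integrated stress responses split, with 7 higher and 7 lower of 31, below the shares over all genes. Atf3 (4.55), Vldlr (4.10), Dnajb9 (2.91), Cebpb (2.20), Ppp1r15a (2.19), Ddit3 (1.71) and Trib3 (1.13) rose, whereas the serine and one-carbon genes Psat1 (-2.48), Mthfd2 (-2.43), Shmt2 (-2.27) and Phgdh (-2.14) fell together with Slc7a5 (-1.69), Asns (-1.68) and Aldh18a1 (-0.58). The other 17 of 31 were not called, among them Atf4 (0.08) and the chaperone gene Hspa5 (0.36), and 12 members instead of 7 rose on the deposited scale alone.

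Genes of the actin cytoskeleton and the matrix moved in both directions. Targets of SRF and YAP, which respond to adhesion and tension, fell in 18 of 27 cases and rose in 2, with a median of -1.04. Cnn1 fell by 3.02 (SE 0.20), Ccn2 by 2.19 and Ankrd1 by 2.01. Tagln went from 10.29, 10.15 and 10.11 log2 to 7.59, 7.37 and 7.66. The 2 that rose were Tgfbi, from 2.13, 1.52 and 1.77 to 7.22, 7.72 and 7.43, and Tgfb2 (1.12). Of 21 integrin and focal adhesion genes 5 rose and 4 fell, no larger a share than over all genes, and 9 rose on the deposited scale alone. The syndecan genes Sdc1 and Sdc4 rose by 2.05 and 1.69, while Itga7 fell by 0.80.

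Extracellular matrix genes rose in 19 of 35 cases and fell in 8 (median 0.65). Over all genes 29.4% rose and 29.3% fell, so falls took no larger a share in this list. Without IFT88KD quiescent replicate 1 only 4 of its members fell. Col6a1 and Col6a2, chains of collagen VI of the muscle stem cell niche, rose by 5.26 and 4.87, and Col6a1 reached 10.32 to 10.43 log2 from 4.93, 4.69 and 5.74. Postn (periostin) rose by 4.21, Loxl1 by 2.52 and Fbln5 by 2.09. Col1a1 and Col1a2, the chains of collagen I, changed by 0.02 and 0.05 and were not called. Has2 (-1.60), Col8a1 (-1.46), Tnc (-1.26) and Col4a1 (-0.88) fell. Matrix proteases and inhibitors rose in 12 of 18 cases (median 1.19), with Mmp9 at 3.58, Mmp19 at 3.17 and Mmp13 at 2.84, and the urokinase receptor gene Plaur fell by 0.75. Fibroblast markers moved with these genes. The 3 of 7 that passed the filter rose, with Pdgfra at 3.57, Pi16 at 2.22 and Cd34 at 2.13, and their part was not tested. Pi16 lay below the filter level on all proliferating arrays of both siRNAs and above it on all quiescent arrays, so its choice favoured a rise. Another Pi16 probe set, below that level on all 6 IFT88KD arrays, changed by 0.03, and another of Pdgfra by 2.41.

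Genes of muscle contraction rose in 29 of 42 cases and fell in 5, with a median of 2.02. Trdn rose by 4.27, Myh1, a fast myosin heavy chain, by 4.01 (SE 0.44), Mybph by 3.55 and Casq2 by 3.28. Myh1 gave 1.90, 2.13 and 4.08 log2 on proliferating and 7.11, 6.30 and 6.73 on quiescent arrays. Another Myh1 probe set changed by 3.68 and a further one, in the lowest 40% of signals on all 6 arrays, by -0.03. Of the 42 members 36 were highest, among proliferating arrays, on replicate 3, under IFT88 siRNA and under control siRNA alike. Among IFT88KD quiescent arrays replicate 1 was highest for 38 of 42. Without IFT88KD proliferating replicate 3 the rises numbered 31 and the median was 2.61. Among members that fell were Chrnb1 (-1.80), Eno3 (-1.25), Tpm3 (-1.11) and Chrna1 (-0.89). Of 20 myogenic regulators 6 rose and 6 fell (median 0.31), close to the shares over all genes (29.4% and 29.3%). Igf2 rose by 2.30, Mef2c by 1.27, Twist1 by 1.15 and Pax3 by 1.05, and Myog was not called (1.13). The satellite cell gene Cdh15, Six4 and Myod1 were among those that fell.

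Signalling genes moved in both directions. Of 32 growth factor and receptor genes 21 rose and 1 fell (median 1.10), with Ereg at 3.90, Pdgfra at 3.57, Btc at 3.49, Fgfr1 at 3.11 and Hgf, a factor that activates satellite cells, at 2.53. Pdgfb was the one that fell (-2.17). TGF-beta and BMP genes rose in 12 of 25 cases and fell in 1 (median 0.57), led by Inhbb (2.12) and the BMP antagonist gene Grem1 (2.07). After centring alone 4 of them fell. Wnt pathway genes rose in 13 of 19 cases and fell in 3 (median 0.59), with the antagonist gene Dkk2 at 3.21, the receptor gene Fzd1 at 2.06 and the target gene Ccn4 at -2.03. With the filter at the 60th percentile 7 of them rose. Of 15 Notch pathway genes 5 fell and 2 rose (median -0.11, and 0.06 without IFT88KD proliferating replicate 3), so falls were near their share over all genes. Among the falls were Lfng (-1.57) and the target gene Hes1 (-1.13).

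Cilium genes rose in 9 of 24 cases and fell in 4, with a median of 0.33, where 29.4% of all genes rose and 29.3% fell, so the list did not stand out by its rises. Bbs2, a subunit of the BBSome cargo adaptor, rose by 1.63, the transition zone gene Tctn2 by 1.25, Ift140 by 1.06 and Kif3a, a motor subunit of intraflagellar transport, by 0.91. Cep290 (-0.83), Ofd1 (-0.75) and Ift57 (-0.51) were among those that fell. These counts moved with the scale, with 14 rising on the deposited scale alone and 7 falling after centring alone, and with the filter at the 60th percentile 2 fell. Of 9 Hedgehog genes, whose signal passes through the cilium, Boc (1.24) and Gas1 (1.13) rose and Hhip (-1.11) and Gli1 (-0.52) fell, no larger a share than over all genes, and after centring alone 4 fell. Ptch1, a target and receptor, changed by -0.02 and was not called.

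Control cells were used to test whether this entry depended on the siRNA. On entry of control cells 2734 genes rose (31.8%) and 2532 fell (29.4%). Of the genes that rose in IFT88KD cells 2321 also rose in control cells (91.8% of the IFT88KD and 84.9% of the control rises). Of those that fell 2266 also fell in control cells (89.8% and 89.5%). Across 8600 genes, which are not independent replicates, the 2 changes correlated at r = 0.975. The direct test of the difference called 102 genes, 74 with a higher change in IFT88KD cells (0.86% of genes tested) and 28 with a lower one (0.326%). Arrays of equal number shared deviations between the siRNAs within a state, and with the replicate number within a state as a block the counts were 197 higher and 125 lower. Without IFT88KD quiescent replicate 1 the lower genes numbered 16, and without control proliferating replicate 2 they numbered 17.

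**Figure D4:**
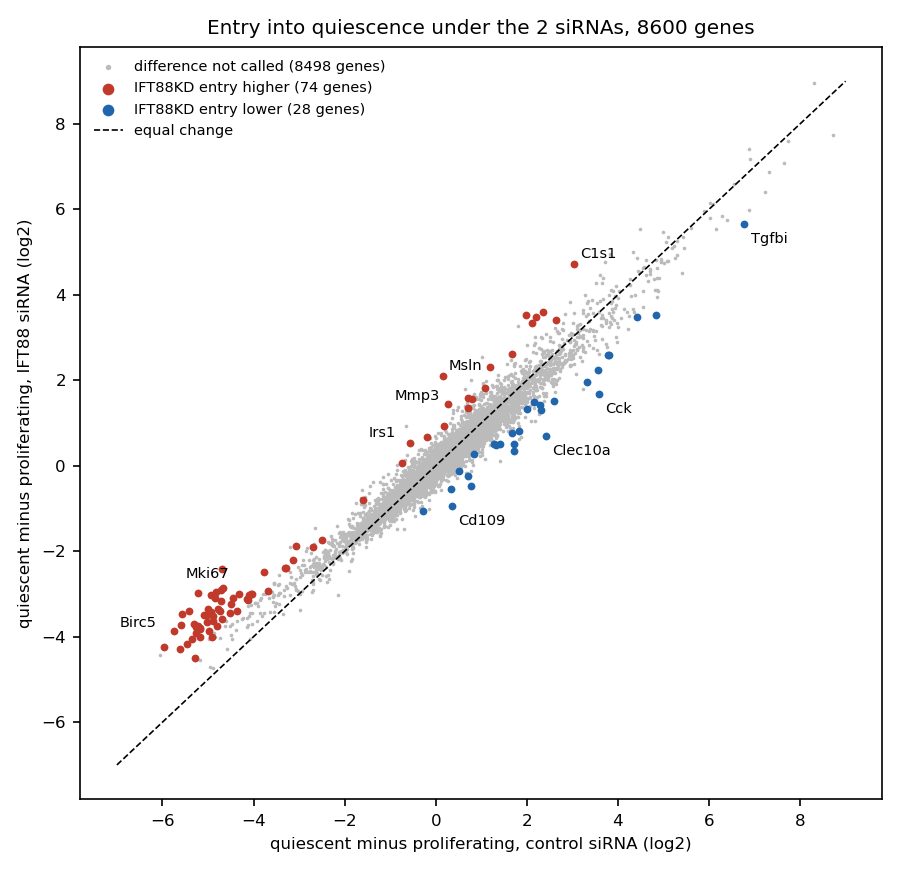
Change of 8600 genes on entry under IFT88 siRNA (vertical, log2) against the change under control siRNA (horizontal, log2), with a dashed line of equal change. Red points (74 genes) changed higher and blue points (28) lower under IFT88 siRNA by the test of the difference, and 56 of the red points fell under IFT88 siRNA.

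Many G2 and mitosis genes fell less in IFT88KD than in control cells, with 32 of 57 called, against 4 of 46 DNA replication genes and, in limma, 0 of 19 G1 cyclin and E2F genes. Of the last, 2 had an unadjusted p under 0.05, the median difference was 0.27, and 2 were called with the block within a state or with array weights. Of the 74 genes with a higher change, 56 fell on IFT88KD entry, and each of these also fell in control cells. For the G2 and mitosis genes the median change was -3.28 in IFT88KD and -4.50 in control cells, and the median of the difference was 1.02. In control cells 56 of the 57 fell and 1 was not called. The differences ran from -0.67 to 2.24, and 56 of the 57 were above 0. The change of a gene in IFT88KD cells was in the median 76.6% of its change in control cells on the log2 scale, against 87.2% for DNA replication genes. Mki67 lay at 9.37, 9.64 and 9.54 log2 in proliferating and 3.97, 4.14 and 4.79 in quiescent control cells, so that its falls were 2.97 and 5.21 and their difference 2.24 (SE 0.28, adjusted p = 1.17e-04). Ccnb2, a cyclin of Cdk1, went from 8.38, 8.31 and 8.15 to 4.63, 5.23 and 4.56 in IFT88KD cells and from 8.49, 8.47 and 8.46 to 2.67, 2.64 and 3.37 in control cells, a difference of 2.11 (SE 0.30, adjusted p = 3.82e-04). Ube2c, the ubiquitin-conjugating enzyme of the anaphase-promoting complex, ended at 5.56, 6.18 and 5.78 against 3.70, 3.64 and 4.10 (difference 2.00, SE 0.27). Top2a, which untangles chromosomes, ended at 6.33, 6.83 and 6.59 against 4.50, 4.84 and 5.10 (1.75, SE 0.23). For Mki67, Ccnb2, Ube2c and Top2a, all 3 quiescent IFT88KD arrays lay above all 3 quiescent control arrays.

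The levels of proliferating cells were close, so the difference of these genes stood in the quiescent arrays. The mean signal of the 57 G2 and mitosis genes was 7.42 to 7.55 log2 on IFT88KD and 7.38 to 7.52 on control proliferating arrays, but 4.11 to 4.48 on IFT88KD and 3.14 to 3.40 on control quiescent arrays. Of the 57 genes 6 lay in the lowest 40% of signals on all quiescent IFT88KD arrays and 19 on all quiescent control arrays, where falls near the floor may be understated. The count of 32 ranged from 28 to 33 when 1 of the 12 arrays of the comparison was left out, and was 43 with the block within a state. Members with called differences covered the spindle checkpoint (Bub1 1.88, Ttk 1.53), kinesins (Kif11 1.47, Kif20a 1.39, Kif23 1.29), kinetochores (Cenpf 1.79, Spc25 1.27, Nuf2 1.03), cytokinesis (Racgap1 1.63, Ect2 1.60, Anln 1.52) and mitotic kinases (Plk1 1.31, Aurka 1.10, Cdk1 1.06). Among the 25 members not called were Melk (0.63, SE 0.22, adjusted p = 0.287) and Cenpe (1.62, SE 0.51, adjusted p = 0.173), the latter with widely spread arrays. Other probe sets of Bub1 and Nusap1, mostly in the lowest 40% of signals, gave differences of 0.08 and -0.05.

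**Figure D5:**
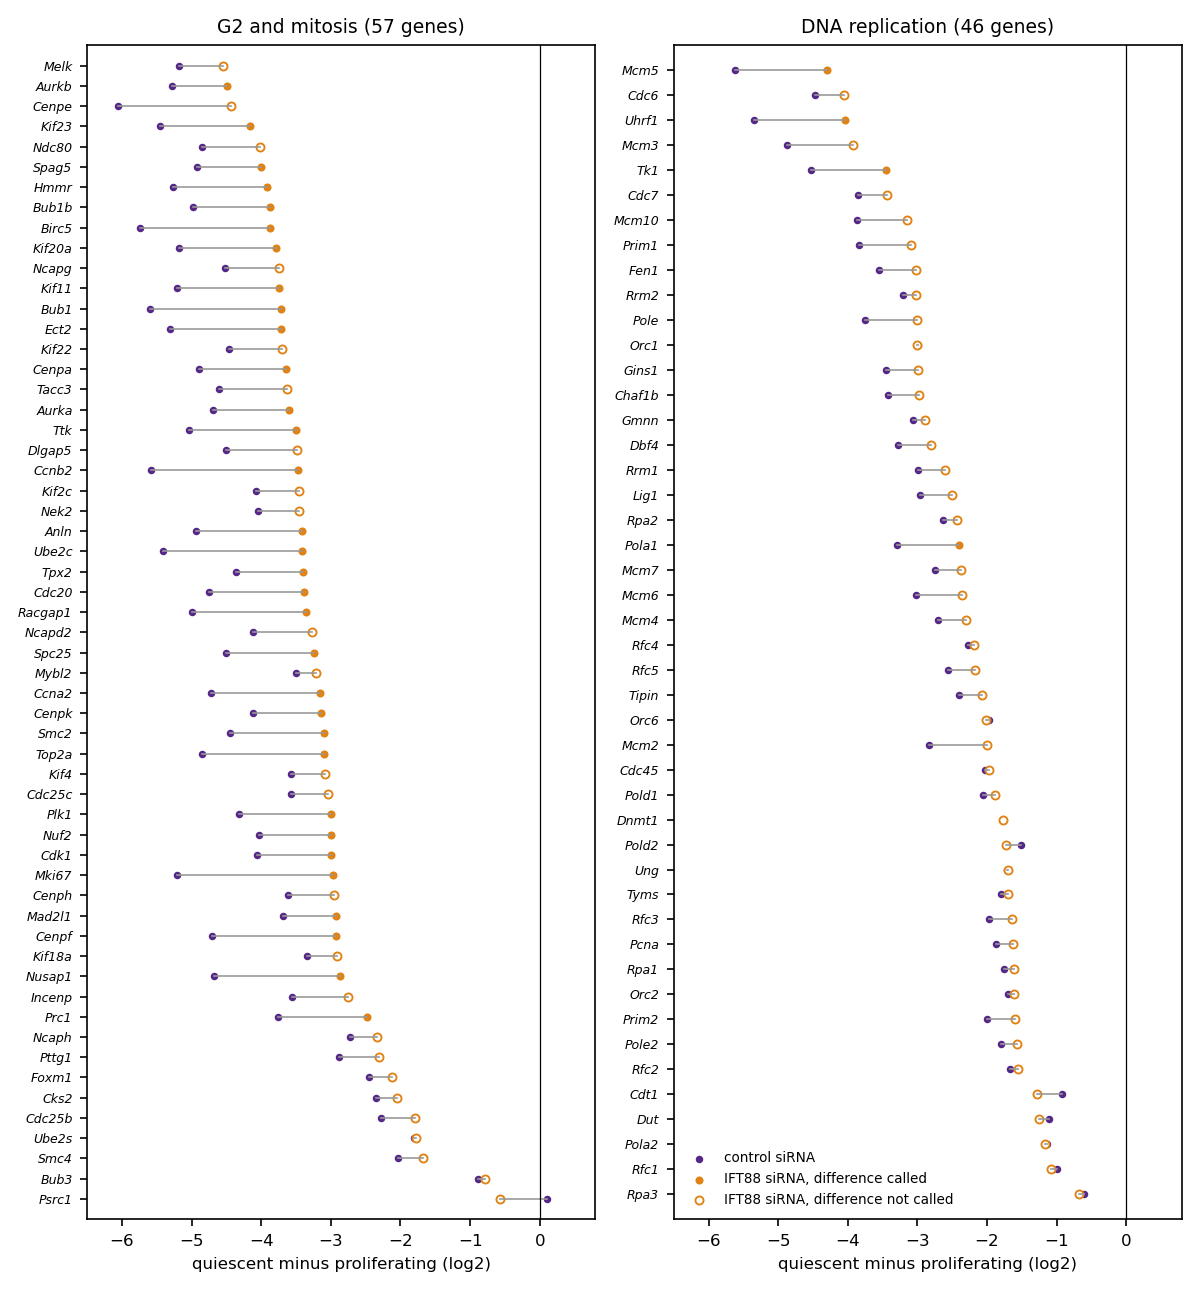
Change on entry (horizontal, log2) of each G2 and mitosis gene (left, 57 genes) and DNA replication gene (right, 46 genes) under control siRNA (purple) and IFT88 siRNA (orange, filled where the difference was called). Filled members number 32 on the left and 4 on the right, and in each of these the orange point lies nearer to 0.

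Among 46 DNA replication genes 4 had a called difference, all higher: Mcm5 (1.32), Uhrf1 (1.31), the thymidine kinase gene Tk1 (1.07) and the polymerase subunit gene Pola1 (0.90). Mcm5 ended at 3.41, 3.30 and 3.65 log2 in quiescent IFT88KD and 2.32, 2.02 and 2.23 in quiescent control cells. The count was 2 or 3 with any 1 of the 12 arrays left out and 10 with the block within a state. Tk1 lost its call in 11 of these 12 fits and Pola1 in 9, whereas Mcm5 and Uhrf1 lost theirs in 0. The median of the difference in this list was 0.33. Stmn1, a microtubule regulator, fell by 2.21 in IFT88KD and by 3.13 in control cells (difference 0.92, SE 0.19).

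A second set of genes rose more in IFT88KD cells: 16 of the 74 rose there, and 12 of these also rose in control cells. Msln, which encodes mesothelin, went from 2.20, 2.36 and 1.86 log2 to 4.46, 4.01 and 4.25 in IFT88KD cells, while control cells lay at 3.13, 4.19 and 3.90 and then at 3.61, 4.07 and 3.98. The quiescent arrays of the siRNAs overlapped and the proliferating arrays did not. The complement protease genes C1s1 and C1ra rose by 4.72 and 3.53 in IFT88KD and by 3.03 and 1.99 in control cells, with differences of 1.69 (SE 0.40, adjusted p = 0.0356) and 1.54 (SE 0.32). With 1 of the 12 arrays left out, C1s1 lost its call in 9 fits (adjusted p of up to 0.127), and C1ra lost its call without IFT88KD quiescent replicate 1 (1.29, adjusted p = 0.0512).

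Of the 28 genes with a lower change in IFT88KD cells, 18 rose in both, less so with IFT88 siRNA. Cck, the cholecystokinin gene, ended at 2.55, 3.21 and 2.67 log2 in quiescent IFT88KD and 4.36, 4.60 and 4.72 in quiescent control cells, from 0.89 to 1.45 and 0.91 to 1.03. Clec10a, a lectin gene, ended at 1.93, 2.38 and 2.30 against 3.79, 3.93 and 4.13. The chemokine gene Ccl8 rose by 3.52 and 4.83 and Tgfbi by 5.65 and 6.78. The call for Tgfbi was lost without IFT88KD proliferating replicate 1 or IFT88KD quiescent replicate 1 (adjusted p of up to 0.0673). The endotoxin coreceptor gene Cd14 ended at 6.57, 6.49 and 6.36 against 8.01, 8.00 and 8.01, and Cd68 at 2.18, 1.85 and 1.84 against 3.16, 3.36 and 3.30. These 2 are macrophage markers, and the other one tested, Csf1r, was not called (-0.23, adjusted p = 0.932). The part of such cells was not tested. Clec10a and Cd68 lay below the filter level on all proliferating arrays of both siRNAs and on all quiescent IFT88KD arrays. Among the groups compared they lay above it only in quiescent control cells, so their choice favoured a lower difference. Ephx1, an epoxide hydrolase gene and p53 target, differed by -1.36 (SE 0.20), but its quiescent arrays were close, at 8.07 to 8.31 and 8.32 to 8.42 log2, and its proliferating arrays lay at 5.98 to 6.62 in IFT88KD and 4.77 to 5.34 in control cells.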

How the data were processed

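Expression was measured on Affymetrix mouse arrays from total RNA (8 ug per labelling, per the labels' protocols). The deposited table holds log2 expression values of the authors, made with GCOS, Affymetrix Expression Console and affy, per the submitters' processing notes. The sources used here give no versions and no normalization method, and do not say whether all states were normalized together.

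Probe sets with 1 gene symbol were kept, a gene was represented by its brightest probe set (x_at sets aside where another existed), and genes above an array's 40th percentile on at least 3 arrays were tested. All 24 arrays were fitted in 1 model with a coefficient per group (limma 3.58.1 in R 4.3.3), on the deposited values and with arrays centred on their medians. The Benjamini-Hochberg adjustment ran over the 8600 genes, and a call needed an adjusted p under 0.05 with 1 sign in both fits. The script was tested on simulated data. The genes named are the 15 rises and 15 falls of largest size without overlap, the 10 largest differences in each direction, Ift88 and members of 31 pathway and 7 marker lists, which with the comparison itself were chosen with earlier results of these data known. Lists were described by counts and medians without a set test.

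Whether replicate numbers pair the arrays was checked first. Deviations of equal number correlated at 0.304 to 0.708 between the siRNAs in proliferating and 0.252 to 0.487 in quiescent cells, so a fit with the number within a state as a block is given for the difference. Between states of IFT88KD cells they correlated at -0.0612 to 0.163. Alternatives were other scalings, filters, probe set means, a variance trend, array weights, blocks and leaving out each array. Summed marker signal is log2 of the sum of linear values. Plots were drawn with matplotlib 3.10.9 in Python 3.11.15.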

Additional observations from a re-analysis of the deposited data

Results flagged for a closer look

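The change on entry differed between the siRNAs, by the limma test of the difference itself, most in 10 genes in each direction. Higher in IFT88KD cells were D17H6S56E-5 (2.29; it fell by 2.41 against 4.70 in control cells), Mki67 (2.24), Ccnb2 (2.11), Ube2c (2.00), Msln (1.95), Pbk (1.90), Bub1 (1.88), Birc5 (1.87), Aspm (1.85) and Nusap1 (1.81), all in log2. Apart from Msln these genes fell on entry under both siRNAs and fell less under IFT88 siRNA. Lower in IFT88KD cells were Cck (-1.90), Clec10a (-1.74), Cd93 (-1.38), Ephx1 (-1.36), Ccl8 (-1.31), Rgcc (-1.31), Cd109 (-1.31), Fabp7 (-1.25), Cd14 (-1.22) and Cd68 (-1.21). Cd93, a surface receptor gene, ended at 1.76, 1.68 and 1.46 log2 in quiescent IFT88KD and 3.25, 3.10 and 2.43 in quiescent control cells. Cd93, Clec10a and Cd68 lay below the filter level on all IFT88KD and all proliferating control arrays, and passed the filter only through other arrays. Rgcc ended at 5.46, 5.51 and 5.44 against 6.37, 6.97 and 6.25. Cd109, an inhibitor of TGF-beta signalling, fell by 0.94 in IFT88KD cells and changed by 0.36 in control cells. With 1 of the 12 arrays left out, the call for Cd109 was lost in 7 fits (adjusted p of up to 0.0941) and that for Fabp7 in 6 (up to 0.122). Pbk, a mitotic kinase gene, ended at 4.96, 5.27 and 5.47 against 3.29, 3.17 and 3.82, and Aspm, of the spindle poles, at 4.20, 4.60 and 4.14 against 2.35, 2.41 and 2.90.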

How the results depend on the processing

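The counts of the IFT88KD entry stayed within 1.5 times under every alternative run. The 5050 genes ranged from 4074 to 5944, and from 4725 to 4940 without single arrays. The 145 entry results checked were those named by size and Ift88, the siRNA target. Called genes among them kept their call and direction in all of 2450 fits, and Ift88 stayed uncalled. The change of Ift88 was 0.07 on the deposited scale and -0.13 after centring. Of 648 genes called on entry that belong to a list or differed between siRNAs, 58 lost the call in at least 1 fit and 45 with 1 array left out. Counts of the difference moved more. Of 102 genes (74 higher, 28 lower) array weights gave 271 (170 and 101), the block of the replicate number within a state gave 322 as a fixed term (197 and 125) and 353 as a random term (197 and 156), and the filter at the 60th percentile gave 15 lower. The fixed and random blocks shared 101 and 102 of the 102 genes. Leaving out 1 array gave 57 to 72 higher and 16 to 34 lower genes. With the replicate number within an siRNA across states as a block, where numbers did not pair, the IFT88KD entry had 5239 genes and the difference 125. Of the 102 genes 45 lost the call in at least 1 fit and 38 with 1 array left out, in 340 of 2422 fits, none with the opposite call. Rgcc was -1.04 (adjusted p = 0.0567) as the mean of its probe sets. The share of G2 and mitosis promoters with TTTGAA moved from 31.2% to 60.4% with the whole 300 bases. The cause of these shifts was not tested. Signal near the floor limits the size of large changes.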
